A study of Mus musculus with 150 samples.

Results

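Gene expression in tissue that joins midbrain and thalamus was set against that in both colliculi of the mouse. The 12 arrays were chosen by their titles: 4 arrays of midbrain-thalamus, 4 of inferior colliculi and 4 of superior colliculi, out of 150 arrays in the series. Every tissue had 2 arrays of strain 129 and 2 of strain B6, all from wild-type inbred mice that the series title calls adult, with no treatment named. No age in weeks or sex is given in the labels. Total RNA was hybridised as biotin-labelled target to one-colour oligonucleotide arrays, on which a gene is read by sets of short probes. The title of each midbrain-thalamus array carries 1 animal number, whereas the title of each colliculi array carries 3. Inferior and superior colliculi shared 1 set of animal numbers in each strain, so the 8 colliculi arrays stand for 6 distinct sets of animals. The set numbers in the titles also differ, 22 and 16 for midbrain-thalamus against 23 and 17 for the colliculi, in strains 129 and B6. Tissue, set number and number of animals therefore cannot be told apart, and p-values measure the spread between these arrays.

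The colliculi form the roof of the midbrain. The superior colliculus receives input from the retina and directs gaze, and the inferior colliculus is a relay of the auditory pathway. Beneath them, the floor of the midbrain holds the dopamine neurons of the substantia nigra and ventral tegmental area, which make dopamine from tyrosine and recover it through a transporter in their membrane. The thalamus, in front of the midbrain, relays sensory and motor signals to the cortex, and its relay neurons are excitatory. Dopamine neurons and thalamic relay neurons are thus known, as background, from the floor and the thalamus and not from the roof. The array titles do not say whether the midbrain-thalamus tissue was taken with or without the colliculi.

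The deposited values are intensities on a linear scale. Values were raised to a floor of 10.4, expressed as log2, and compared as midbrain-thalamus minus the mean of both colliculi, with strain as a term in the limma fit. A gene was called at an adjusted p below 0.05 (Benjamini-Hochberg) and a log2 difference of at least 1, and 4948 genes bright enough in at least 1 of the 3 tissues were tested. The median intensity of an array was 47.8 to 51.0 in midbrain-thalamus and 48.7 to 54.5 in the colliculi. Between 19.9% and 22.2% of probe sets lay at the floor in midbrain-thalamus and between 19.3% and 23.7% in the colliculi. As a measure of RNA quality, the 3' to 5' ratio of Gapdh was 0.773 to 0.979 in midbrain-thalamus and 0.842 to 0.968 in the colliculi. Over the tested genes, arrays of midbrain-thalamus correlated with each other at 0.960 to 0.988. They correlated at 0.930 to 0.961 with inferior and at 0.929 to 0.965 with superior colliculi.

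Midbrain-thalamus differed from the mean of both colliculi in 51 genes, which is 1.03% of those tested. Of these, 37 genes (0.748% of those tested) were higher and 14 (0.283%) lower in midbrain-thalamus. The 12 genes with the largest rise were Avp, Slc6a3, Oxt, Hcrt, Ramp3, Prkcd, Gabrd, Cox6a2, Ttr, Klk6, Gbx2 and Tac2. The median difference over all tested genes was -0.01 log2. On 33 of the 37 higher genes all 4 midbrain-thalamus arrays lay above all 8 colliculi arrays, an order that 4.87% of tested genes had. On 7 of the 14 lower genes all 4 lay below all 8, as did 4.55% of tested genes. Of the higher genes, 26 passed the same thresholds against each colliculus taken alone, 4 passed only against inferior and 7 only against superior colliculi. Of the lower genes, 6 passed against each, 3 only against inferior and 5 only against superior colliculi. In bulk tissue a larger share of cells of a type and more RNA per cell cannot be told apart.

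The label was first checked with Slc6a3, which encodes the dopamine transporter and marks dopamine neurons. Its intensity was 178, 180, 195 and 150 in midbrain-thalamus (the pair of 129 arrays, then the pair of B6 arrays). It was -2.9, -7.43, 23.3 and 20.7 in inferior colliculi and 3.08, 24.5, 2.59 and 4.6 in superior colliculi. Every midbrain-thalamus array was far above every colliculi array, and 5 of the 8 colliculi arrays were at the floor. The difference was 3.65 ± 0.29 log2 (limma estimate ± SE, adjusted p = 9.78e-08). Its size depends on the floor: it was 4.63 with the floor at the 10th percentile and 2.42 with the floor at the 40th. Among the 24 neural tissues of the series, midbrain-thalamus had the highest Slc6a3 level, a strain-adjusted geometric mean of 175, followed by olfactory bulbs at 41.3 and the tissue labelled PAG at 35.7.

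Th, which encodes tyrosine hydroxylase, the rate-limiting enzyme of dopamine synthesis, was 556, 480, 526 and 514 in midbrain-thalamus. It was 143, 152, 126 and 176 in inferior colliculi and 72.0, 77.3, 104 and 74.8 in superior colliculi. The groups did not overlap, and both colliculi kept a level well above the floor. Th was higher in midbrain-thalamus by 2.24 ± 0.11 (adjusted p = 1.09e-10, limma), by 1.81 ± 0.12 against inferior and by 2.68 ± 0.12 against superior colliculi. Its level of 518 in midbrain-thalamus was second to that in olfactory bulbs, 1579.

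Ddc, which encodes the decarboxylase that makes dopamine from L-DOPA and serotonin from 5-hydroxytryptophan, was 417, 454, 385 and 344 in midbrain-thalamus. It was 61.9, 86.4, 396 and 224 in inferior colliculi and 84.8, 83.6, 142 and 87.3 in superior colliculi. Here the groups overlapped, since the first B6 array of inferior colliculi reached the range of midbrain-thalamus. The difference was 1.73 ± 0.28 (adjusted p = 0.000282, limma). In B6 arrays alone it was 1.00 and below the size threshold, against 2.47 in 129 arrays alone. Slc6a4, the serotonin transporter and a marker of serotonin neurons, was 62.4 and 65.1 in those B6 arrays of inferior colliculi and 28.5 and 42.7 in the 129 arrays, and its part in the Ddc values was not tested.

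Ret, the receptor through which GDNF supports dopamine neurons, was 75.8, 74.0, 66.9 and 63.7 in midbrain-thalamus, against 49.4, 25.5, 28.2 and 11.7 in inferior and 2.24, 24.6, 22.8 and 26.7 in superior colliculi. All midbrain-thalamus arrays were above all colliculi arrays, and the difference was 1.64 ± 0.32 (adjusted p = 0.00129, limma), with 1.85 for the floor at the 10th percentile and 1.02 at the 40th. Dlk1, a membrane protein of the Notch ligand family, was 249, 208, 256 and 215 in midbrain-thalamus, and ran from 80.3 to 122 over the colliculi arrays, without overlap. It rose by 1.19 ± 0.10 (adjusted p = 3.73e-07, limma).

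Of the 20 genes listed for dopamine neurons, 17 were on the array and 9 were tested. Of these, 5 were called higher, beside 0.748% of all tested genes, and none lower. The median difference was 1.19 log2 over the 9, beside -0.01 over all genes. Slc6a3 and Ret were bright enough for the test in midbrain-thalamus alone, so this median describes the tested genes and not the whole list. Of the 9, 4 were not called. Pitx3, a transcription factor of these neurons, differed by 0.02 ± 0.19, Drd2, the dopamine D2 receptor, by -0.20 ± 0.09, and Sncg, gamma-synuclein, by 0.23 ± 0.10. Aldh1a1, a retinaldehyde dehydrogenase found in a subset of dopamine neurons, differed by 0.37 ± 0.07. Drd2 was 130 to 155 in midbrain-thalamus, against 213 to 270 in inferior and 98.2 to 123 in superior colliculi, so its level lay between those of the colliculi.

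The remaining 8 listed genes were too dim for the test: Nr4a2, Gch1, Lmx1b, Foxa1, Foxa2, Kcnj6, Chrna6 and Ntsr1. Nr4a2, the nuclear receptor that dopamine neurons need for their identity, was 51.7, 40.1, 44.1 and 46.5 in midbrain-thalamus, against 11.3, 4.08, 12.7 and 23.5 in inferior and 12.5, 9.17, 11.7 and 16.4 in superior colliculi. These groups did not overlap, and without the filter on dim genes Nr4a2 was higher by 1.79 ± 0.19 (adjusted p = 0.000740, limma). Foxa1 and Foxa2, transcription factors of the ventral midbrain, were at most 20.7 and 18.7 on any of the 12 arrays. Without the filter their differences were 0.49 ± 0.11 and 0.40 ± 0.10 (adjusted p = 0.0246 and 0.0321, limma). Foxa1 was 12.8 to 20.7 in midbrain-thalamus and at most 11.1 in the colliculi, and Foxa2 was 12.1 to 18.7 and at most 9.97. All colliculi arrays for Foxa2 and most for Foxa1 were at the floor, which limits the size of both differences. Gch1, which makes the cofactor of tyrosine hydroxylase, differed by 0.25 ± 0.39 without the filter, and its arrays overlapped. Kcnj6, Lmx1b, Chrna6 and Ntsr1 were at -0.06, 0.01, 0.08 and 0.20 without the filter, and none of them passed the adjusted p threshold.

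The 3 genes that take part in dopamine synthesis and recovery, and that were called higher, are shown here by the 150 bases before their annotated start, 5′ to 3′ on the coding strand, from RefSeq on GRCm38.p6. Capitals mark 2 motifs that were searched on both strands: AAAGGTCA, the site of NR4A nuclear receptors, and TGACGTCA, the cAMP response element.
Slc6a3, chr13:73536597-73536746, plus strand: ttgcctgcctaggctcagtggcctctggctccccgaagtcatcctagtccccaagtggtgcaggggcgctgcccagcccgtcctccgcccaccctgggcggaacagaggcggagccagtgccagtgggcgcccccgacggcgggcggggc
Th, chr7:142899996-142900145, minus strand: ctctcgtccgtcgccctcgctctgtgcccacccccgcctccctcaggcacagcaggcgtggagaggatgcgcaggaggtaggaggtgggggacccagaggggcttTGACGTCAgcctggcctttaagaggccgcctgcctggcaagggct
Ddc, chr11:11898145-11898294, minus strand: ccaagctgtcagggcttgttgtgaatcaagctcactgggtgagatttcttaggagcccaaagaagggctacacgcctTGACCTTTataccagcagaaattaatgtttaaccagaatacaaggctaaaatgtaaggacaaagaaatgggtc
The cAMP response element stands at -45 to -38 before the start of Th. The NR4A site stands on the opposite strand at -73 to -66 before this start of Ddc, and the other annotated Ddc start had neither motif in its 150 bases. The Slc6a3 window holds neither. Over 32851 annotated mouse promoters, 0.785% hold the NR4A site and 1.36% the cAMP response element in the same window. These are matches of letters and say nothing on binding.

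**Figure D1:**
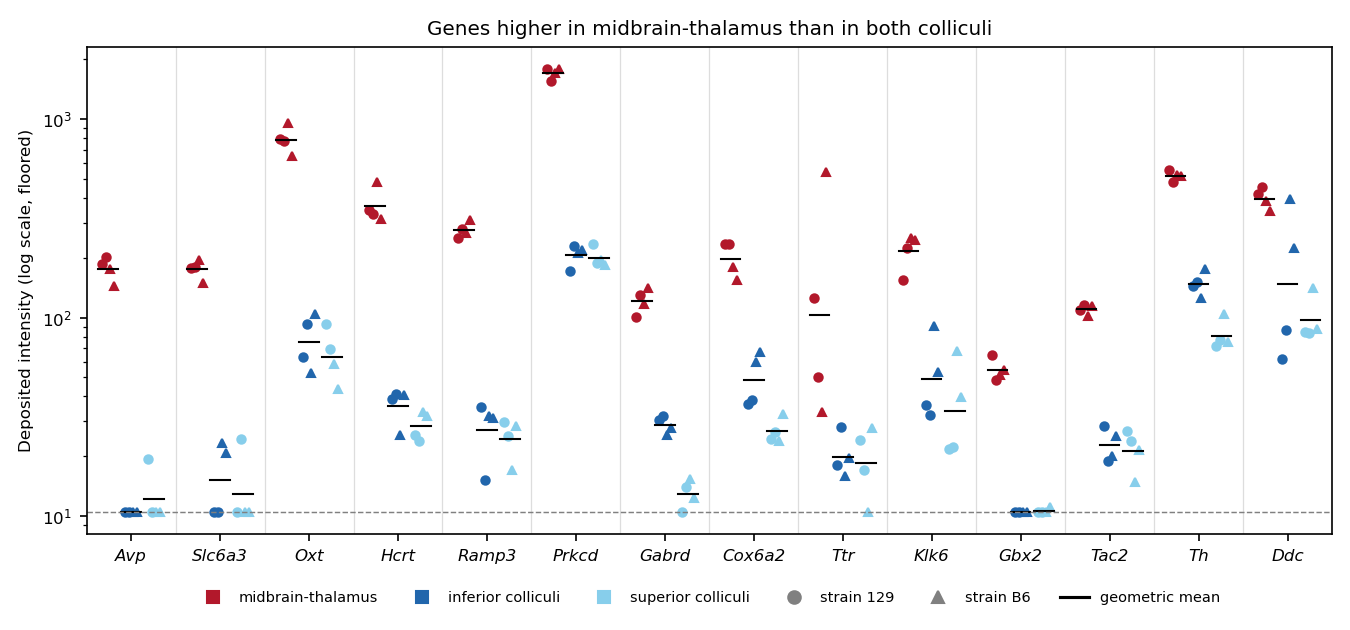
Intensity (log scale, floored at 10.4, dashed line) on each array for the 12 genes with the largest rise in midbrain-thalamus, followed by Th and Ddc; black lines are geometric means of 4 arrays. The 4 midbrain-thalamus arrays lie above all 8 colliculi arrays for every gene shown except Ddc, where 1 inferior colliculi array of strain B6 lies at 396.

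Genes of thalamic relay neurons formed the next group. Prkcd, protein kinase C delta, a marker of thalamic relay neurons, was 1782, 1554, 1714 and 1787 in midbrain-thalamus. It was 172, 229, 212 and 219 in inferior colliculi and 235, 188, 195 and 184 in superior colliculi. The groups were widely apart and varied little within themselves, and the difference was 3.07 ± 0.09 (adjusted p = 5.78e-14, limma). A second probe set of the gene gave 3.67. Of the 24 neural tissues, midbrain-thalamus had the highest level, 1707, followed by the tissue labelled BNST at 1292.

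Ramp3, which modifies the ligand choice of calcitonin-family receptors, was 252, 278, 265 and 309 in midbrain-thalamus. It was 35.5, 15.1, 31.8 and 31.1 in inferior colliculi and 29.9, 25.2, 17.0 and 28.3 in superior colliculi. The difference of 3.42 ± 0.21 came with no overlap (adjusted p = 4.22e-09, limma). Gbx2, a homeobox transcription factor needed for thalamic development, was 65.0, 48.2, 51.2 and 54.5 in midbrain-thalamus, and at most 11.1 on any colliculi array, with 7 of those 8 at the floor. Its difference was 2.37 ± 0.28 (adjusted p = 1.17e-05, limma), but 0.73 and not called with the floor at the 40th percentile, and 3.75 with the floor at the 10th.

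Tnnt1, slow skeletal troponin T, which marks thalamic nuclei in the mouse, was 290, 293, 541 and 525 in midbrain-thalamus, against 68.4 to 97.4 in inferior and 113 to 166 in superior colliculi. The B6 arrays were above the 129 arrays in midbrain-thalamus. The gene rose by 1.86 ± 0.13 (adjusted p = 1.32e-08, limma), while a dimmer probe set of it gave 0.83. Rgs16, a regulator of G-protein signalling, was 588, 544, 836 and 610 in midbrain-thalamus, against 278 to 429 in inferior and 225 to 259 in superior colliculi. It rose by 1.11 ± 0.12 (adjusted p = 3.16e-06, limma), and was not called without the first B6 array of midbrain-thalamus or in 129 arrays alone, where it was 0.82. With the colliculi taken alone, Rgs16 was called against superior colliculi, at 1.41 ± 0.13, and not against inferior colliculi, at 0.81 ± 0.13.

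All 11 thalamic genes that were on the array were tested. They had a median of 0.91, and 5 were called higher, beside 0.748% of all tested genes, and none lower. Rora, a nuclear receptor of thalamic relay neurons, was just under the size threshold at 0.91 ± 0.09, with 259 to 355 in midbrain-thalamus and 153 to 179 in the colliculi. Adarb1, an RNA editing enzyme, differed by 0.49 ± 0.07. The 4 genes not separated from both colliculi included Tcf7l2 and Lef1, a pair of Wnt pathway transcription factors of the thalamus, at 0.06 ± 0.12 and 0.59 ± 0.10. Cacna1g, a T-type calcium channel, was at -0.45. The remaining gene, Six3, was at 0.54 ± 0.18. Tcf7l2 and Lef1 are given with the genes that separate the colliculi.

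Another group was unlike the title of the tissue. Avp, Oxt and Hcrt encode vasopressin, oxytocin and hypocretin, peptides whose neurons lie in the hypothalamus. Avp was 186, 202, 175 and 144 in midbrain-thalamus, against 2.29, 2.03, 5.71 and 6.31 in inferior and 19.3, 1.85, -8.63 and 9.49 in superior colliculi. With 7 of 8 colliculi arrays at the floor, the difference of 3.96 ± 0.22 (adjusted p = 1.14e-09, limma) was 5.01 with the floor at the 10th percentile and 2.42 at the 40th.

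Oxt was 798, 774, 957 and 652 in midbrain-thalamus, against 52.6 to 104 in inferior and 43.6 to 92.5 in superior colliculi, and rose by 3.51 ± 0.18 (adjusted p = 3.39e-10, limma). Hcrt was 347, 332, 480 and 315 in midbrain-thalamus, against 25.5 to 41.1 in inferior and 23.8 to 33.5 in superior colliculi, and rose by 3.51 ± 0.16 (adjusted p = 9.84e-11, limma). All 3 peptides were high on all 4 midbrain-thalamus arrays and did not rest on 1 array.

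For each of the 3, midbrain-thalamus ranked 3 of 24 neural tissues, after hypothalamus and the tissue labelled BNST. Avp had a level of 175 in midbrain-thalamus, against 3876 in hypothalamus and 548 in BNST. Oxt had 788, against 2906 and 1941. Hcrt had 363, against 950.2 and 634. Of the 10 genes on the array from the list of hypothalamic neurons, 6 were tested. The 6 had a median of 2.06, and 3 were called higher, beside 0.748% of all tested genes. The others were Gal, galanin, at 0.61, Trh, thyrotropin-releasing hormone, at 0.46 and Nr5a1, a transcription factor of the ventromedial hypothalamus, at -0.11. Avp and Hcrt were bright enough for the test in midbrain-thalamus alone. The 4 genes too dim for the test, Ghrh, Gnrh1, Pomc and Sim1, were at 0.28, 0.25, -0.25 and 0.15 without the filter. The median of 2.06 therefore describes the tested genes and not the whole list. The summed intensity of the 10 was 1731 to 2333 in midbrain-thalamus and 578 to 924 in the colliculi. Whether hypothalamic tissue took part in the differences of the other genes was not tested.

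**Figure D2:**
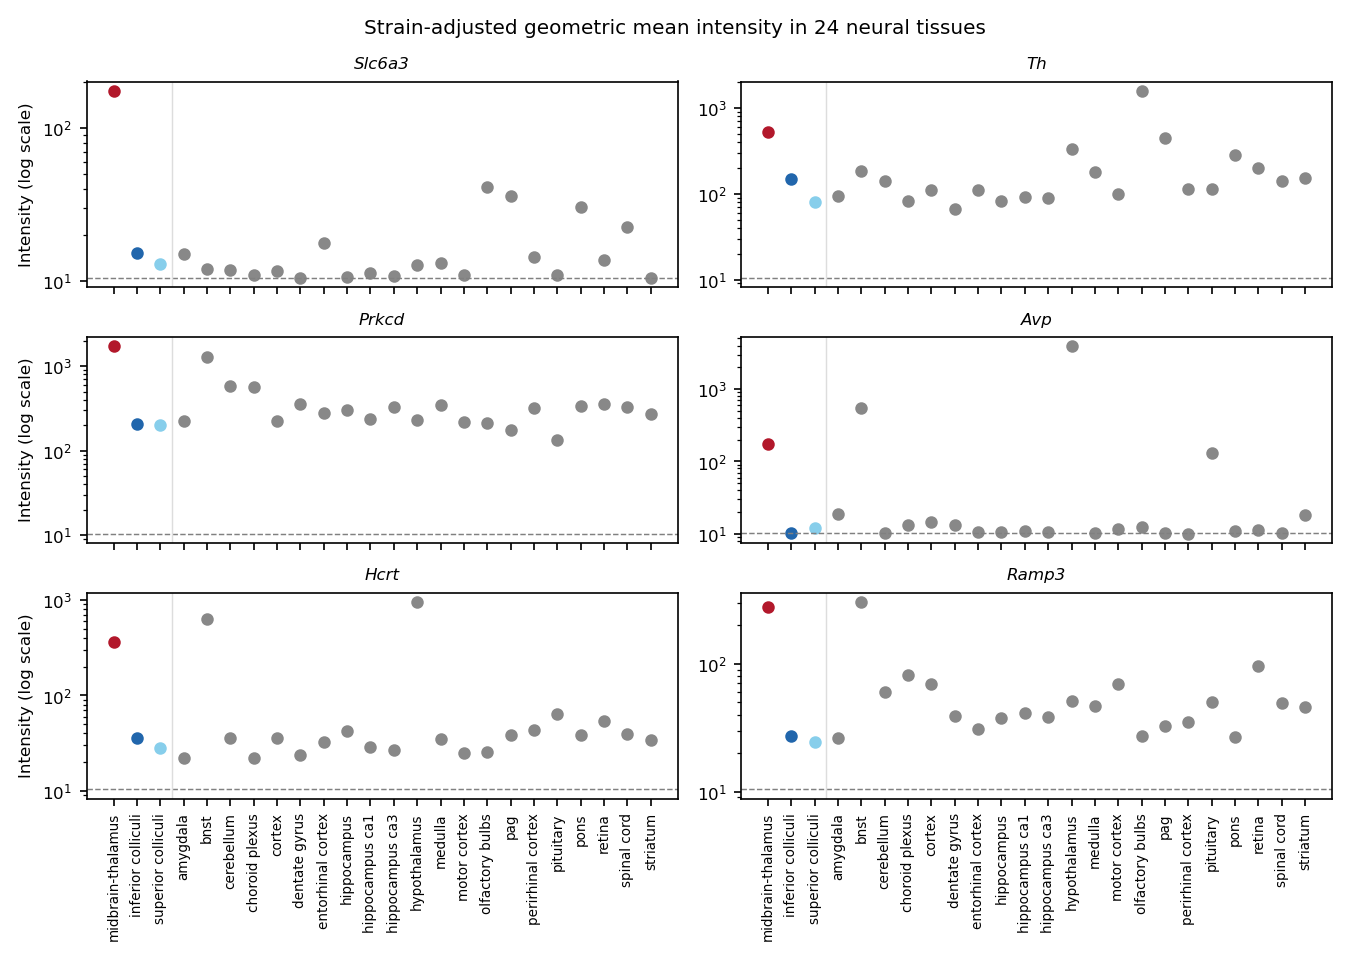
Strain-adjusted geometric mean intensity (log scale) in the 24 neural tissues, with midbrain-thalamus and the colliculi at the left and the floor as a dashed line. Slc6a3 and Prkcd are highest in midbrain-thalamus at 175 and 1707, while Avp and Hcrt are highest in hypothalamus at 3876 and 950.2, and Ramp3 in BNST at 303.

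Tac2, the precursor of neurokinin B and a marker of the habenula, which lies on the thalamus, was 109, 116, 101 and 114 in midbrain-thalamus, against 19.0 to 28.3 in inferior and 14.9 to 26.8 in superior colliculi. Its rise of 2.32 ± 0.19 (adjusted p = 1.80e-07, limma) made it 1 of 3 called higher among 11 tested neuropeptide precursors. The 11 had a median of 0.29, and 0.748% of all tested genes were called higher. The other 2 called precursors were Cck, cholecystokinin, at 1.06 ± 0.09, and Pnoc, the precursor of nociceptin, at 1.02 ± 0.25 (adjusted p = 0.00666, limma). Pnoc arrays overlapped, at 56.2 to 106 in midbrain-thalamus and 25.2 to 80.0 in the colliculi, and the call was lost in 8 of 27 alternatives.

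Gabrd encodes the delta subunit of extrasynaptic GABA-A receptors, which carry a tonic current in the thalamus. It was 101, 130, 117 and 140 in midbrain-thalamus, against 30.3, 31.9, 25.5 and 27.9 in inferior and 0.56, 14.0, 15.4 and 12.4 in superior colliculi. The 3 tissues were separate, and the difference was 2.65 ± 0.19 (adjusted p = 2.35e-08, limma). It was 2.86 with the floor at the 10th percentile and 1.88 at the 40th. It was the sole gene called among 11 tested genes of GABA and glycine transmission, beside 1.03% of all tested genes called. The median of the 11 was 0.25. Gad1, which makes GABA, was lower without passing the size threshold, at -0.42 ± 0.06, with all 4 midbrain-thalamus arrays (1543 to 1720) below all 8 colliculi arrays (1981 to 2534).

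Cox6a2, a subunit of mitochondrial cytochrome c oxidase best known from muscle, was 234, 234, 180 and 154 in midbrain-thalamus, against 36.7 to 67.0 in inferior and 23.8 to 32.6 in superior colliculi. It rose by 2.45 ± 0.18 (adjusted p = 4.19e-08, limma), and midbrain-thalamus had the highest level of the 24 tissues. Calb1, the calcium buffer calbindin, was 264, 324, 250 and 262 in midbrain-thalamus, against 34.5 to 54.5 in inferior and 168 to 215 in superior colliculi. Its mean difference was 1.60 ± 0.13 (adjusted p = 1.70e-07, limma), made of 2.69 ± 0.15 against inferior and 0.50 ± 0.15 against superior colliculi, and the contrast with superior colliculi was not called.

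Other called genes were of varied function. Rasgrp1, an activator of Ras, was higher by 1.68 ± 0.15, Rasd1, a Ras-like protein induced by dexamethasone, by 1.61 ± 0.14, and Rgs4, a regulator of G-protein signalling, by 1.41 ± 0.19. Rasd1 was 125 to 161 in midbrain-thalamus, against 58.8 to 116 in inferior and 22.6 to 27.4 in superior colliculi. The calcium channel subunit Cacna2d3 was higher by 1.27 ± 0.11. It was the sole called gene of 24 tested ion channel genes, beside 1.03% of all tested genes called, and the median of the 24 was 0.01. The synaptotagmins Syt17 and Syt9 were higher by 1.51 ± 0.29 and 1.24 ± 0.18. Syt17 was 79.5 to 119 in midbrain-thalamus, against 8.86 to 40.8 in inferior and 51.0 to 71.2 in superior colliculi. Cbln1, a secreted organiser of synapses, was higher by 1.22 ± 0.13, and Sema6d, a guidance protein, by 1.21 ± 0.13. Cbln1 was called against superior colliculi alone, at 1.68 ± 0.15, and not against inferior colliculi, at 0.76 ± 0.15. Nr2f1 and Nr2f2, nuclear receptors that pattern the forebrain, were higher by 1.14 ± 0.17 and 1.01 ± 0.18, and each was called only against inferior colliculi when the colliculi were taken alone. Nr2f2 and Anln (1.00 ± 0.13) were the closest above the size threshold, and each lost its call in 6 of the 12 fits that left out 1 array, with values down to 0.89.

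Among genes of glia, Klk6, a secreted protease of oligodendrocytes, was 154, 225, 253 and 246 in midbrain-thalamus, against 36.4, 32.2, 90.7 and 52.9 in inferior and 21.7, 22.1, 67.5 and 39.8 in superior colliculi. It rose by 2.41 ± 0.19 (adjusted p = 9.63e-08, limma) without overlap. It was the sole call among 11 tested myelin genes, beside 1.03% of all tested genes called. Their median was 0.62, and 5 of the 11 had all 4 midbrain-thalamus arrays above all 8 colliculi arrays, an order that 4.87% of all tested genes had. Mobp and Mag, proteins of the myelin sheath, were higher by 0.66 ± 0.08 and 0.64 ± 0.07, and Ugt8a, which makes myelin lipid, by 0.93 ± 0.12, none of which passed the size threshold. Mbp, the myelin basic protein, was at 0.04.

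None of 15 tested astrocyte genes, 7 microglial genes and 9 genes of vessels and blood was called, with medians of -0.04, 0.20 and -0.01. Since 1.03% of all tested genes were called, lists of this size would hold few or no calls at that share. By adjusted p alone, without the size threshold, 7 of the astrocyte genes, 3 of the microglial genes and 1 of the genes of vessels and blood passed, as did 23.5% of all tested genes. The astrocyte gap junction gene Gja1 was at -0.30 ± 0.06, with 2291 to 2472 in midbrain-thalamus and 2680 to 3852 in the colliculi. None of the 10 tested glutamate genes was called, and Gria2, an AMPA receptor subunit, was lower at -0.53 ± 0.06, with 1283 to 1432 in midbrain-thalamus and 1700 to 2443 in the colliculi. None of the 9 tested immediate early genes, which report recent activity, was called, and Egr1 was nearest the threshold at -0.87 ± 0.11.

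Ttr, transthyretin, the leading product of the choroid plexus, was called at 2.43 ± 0.52 (adjusted p = 0.00265, limma). Its intensity was 125, 50.3, 33.4 and 539 in midbrain-thalamus, against 5.51 to 27.9 in the colliculi. Although all 4 arrays were above all 8, they spread widely, and without the second B6 array of midbrain-thalamus the gene was too dim to be tested. It was the sole call of 8 tested genes of choroid plexus, ependyma and meninges, beside 1.03% of all tested genes called. The mean of both colliculi hides differences here. Taken alone, 2 of the 8 were called higher against inferior colliculi, and 1 higher and 2 lower against superior colliculi. Col1a1, a collagen gene, was 47.6 to 62.4 in midbrain-thalamus, 10.4 to 57.7 in inferior and 105 to 141 in superior colliculi.

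**Figure D3:**
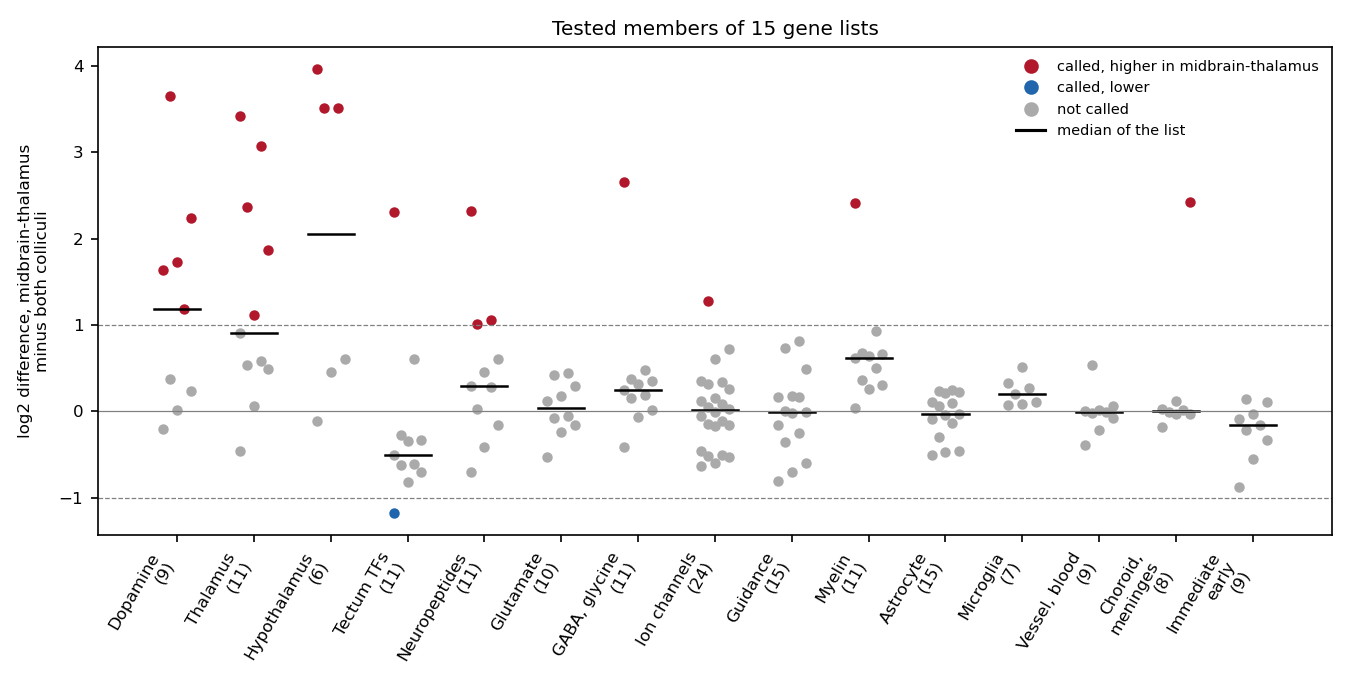
Difference of midbrain-thalamus minus both colliculi (log2) for the tested members of 15 gene lists, with the number tested in brackets, black bars at the median and dashed lines at the size threshold. The medians are 1.19 for dopamine, 0.91 for thalamus and 2.06 for hypothalamus, and -0.50 for transcription factors of the tectum. They leave out members too dim for the test, whereas Slc6a3, Ret, Avp and Hcrt were bright enough in midbrain-thalamus alone.

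Fewer genes were lower in midbrain-thalamus, and no list supplied more than 1 of them. Ago2, which encodes the Argonaute protein that slices RNA targets, was 113, 131, 115 and 125 in midbrain-thalamus, against 346, 282, 349 and 294 in inferior and 405, 407, 373 and 376 in superior colliculi. The groups were far apart, and the gene fell by 1.54 log2 (SE 0.08, adjusted p = 4.40e-10, limma). Midbrain-thalamus ranked 20 of the 24 neural tissues for it. Akap9, a scaffold for protein kinase A at the centrosome and Golgi, was 36.0, 26.5, 23.4 and 34.8 in midbrain-thalamus, against 63.5 to 118 in the colliculi, and fell by 1.60 (SE 0.17, adjusted p = 4.86e-06, limma).

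Ngef, a guanine nucleotide exchange factor that acts under Eph receptors, was 303, 311, 369 and 296 in midbrain-thalamus, against 639 to 730 in inferior and 609 to 706 in superior colliculi, and fell by 1.06 (SE 0.07, adjusted p = 1.65e-08, limma). Cplx2, complexin 2 of the vesicle fusion machinery, was 237, 251, 165 and 216 in midbrain-thalamus, against 337 to 423 in inferior and 459 to 691 in superior colliculi, and fell by 1.09 (SE 0.10, adjusted p = 4.40e-07, limma). Neither gene's groups overlapped. Per2, a core gene of the circadian clock, was 26.5 to 35.6 in midbrain-thalamus and 44.6 to 105 in the colliculi, a difference of -1.11 ± 0.20. Cdc7, a kinase of DNA replication, was 12.4 to 44.2 in midbrain-thalamus and 51.7 to 77.0 in the colliculi, at -1.25 ± 0.22. Without the first B6 array of midbrain-thalamus, neither Cdc7 nor Cplx2 was called.

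Some of the lower genes are less certain. Tyms-ps, a pseudogene annotation and the largest fall at -1.96 ± 0.37, overlapped between groups, though its call was kept in 27 of 27 alternatives. Its second probe set was at 0.09, but had a mean intensity of 3.71, below the floor, and so could show little difference. Rbfox2, a splicing regulator, was called at -1.06 ± 0.36 (adjusted p = 0.0427, limma), but its second probe set was at 0.63. Its call was lost in 18 of 26 alternatives. The difference came from superior colliculi alone, at -2.14 ± 0.42, beside 0.03 ± 0.42 against inferior colliculi. Xrn1, an RNA exonuclease, at -1.01 ± 0.20, and Cbfa2t3, a transcriptional corepressor, at -1.03 ± 0.21, also overlapped between groups. Xrn1 lost its call in 10 of 27 alternatives and Cbfa2t3 in 9.

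**Figure D4:**
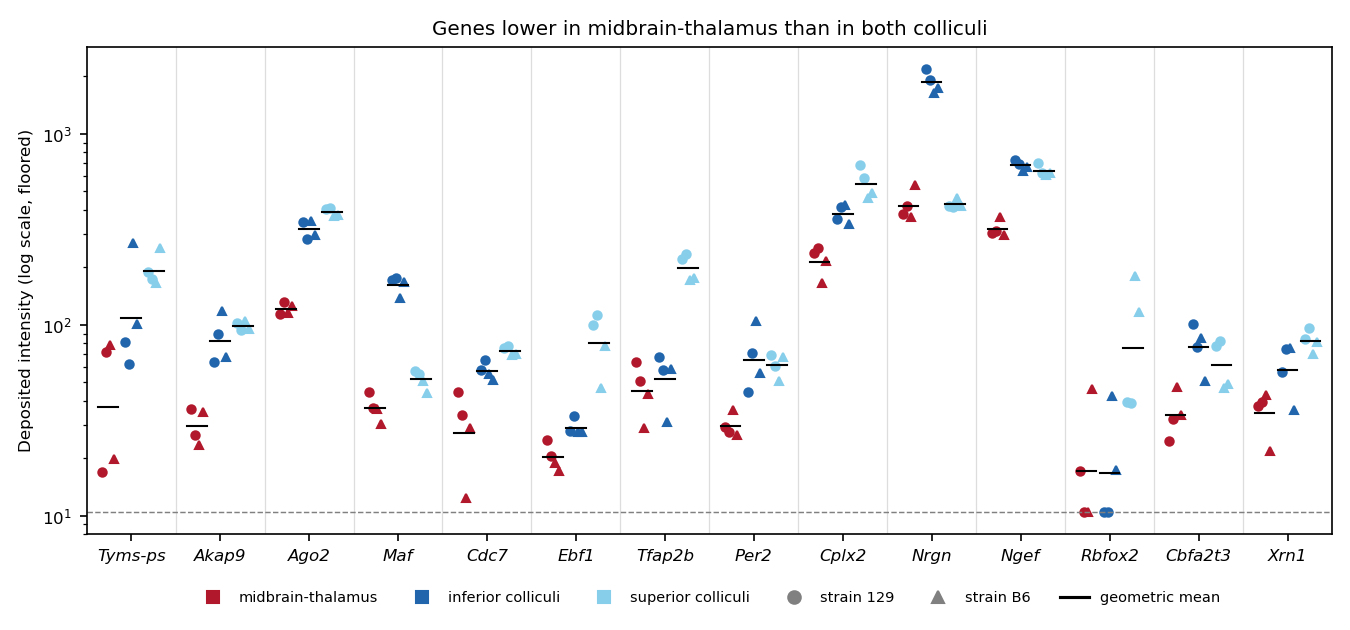
Intensity (log scale, floored at 10.4, dashed line) on each array for the 14 genes called lower in midbrain-thalamus against the mean of both colliculi. Genes stand in order of the difference, and black lines are geometric means of 4 arrays. Ago2, Akap9, Ngef and Cplx2 show no overlap, whereas Nrgn and Maf are high in inferior and Tfap2b and Ebf1 in superior colliculi alone.

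The colliculi also differed from each other, so that many genes separated midbrain-thalamus from 1 of them. Against inferior colliculi 73 genes were called, or 1.48% of those tested, with 49 (0.99%) higher and 24 (0.485%) lower in midbrain-thalamus. Against superior colliculi 72 were called, or 1.46%, with 46 (0.93%) higher and 26 (0.525%) lower. These comparisons share the midbrain-thalamus arrays. Called in both were 36 genes, which is 49.3% of the first list and 50% of the second, and 4 of them had opposite directions.

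En1, the homeobox gene that sets up midbrain and anterior hindbrain, was 162, 138, 167 and 141 in midbrain-thalamus, against 422, 435, 309 and 363 in inferior and 17.4, 34.3, 39.5 and 20.3 in superior colliculi. Midbrain-thalamus lay between the colliculi without overlap. It was at -1.32 ± 0.21 (adjusted p = 0.000243, limma) against inferior and at 2.53 ± 0.21 (adjusted p = 1.79e-07, limma) against superior colliculi. Npy, neuropeptide Y, was 234, 299, 213 and 208 in midbrain-thalamus, against 985, 1154, 533 and 567 in inferior and 91.0, 107, 93.3 and 71.9 in superior colliculi. Its differences were -1.70 ± 0.14 and 1.39 ± 0.14 against inferior and superior colliculi. The other 2 genes of opposite direction, named after their values were seen, were Col1a2 and Fmod, which encode extracellular matrix proteins. Col1a2 was at 1.15 ± 0.30 against inferior and -1.23 ± 0.30 against superior colliculi, but at -0.0099 and 0.23 with the probe set brightest over the 12 arrays. Fmod was at 1.16 ± 0.37 and -1.34 ± 0.37. Without the second 129 array of inferior colliculi, neither was called against inferior colliculi, at 0.91 for Col1a2 and 0.56 for Fmod. The call of Fmod was lost in 12 of 26 alternatives against inferior colliculi, 5 of them fits that left out 1 array, and in 5 of 26 against superior colliculi. That of Col1a2 was lost in 7 of 26 and 4 of 26.

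Most of the genes that follow were also named after their values were seen. Nrgn, neurogranin, a calmodulin-binding protein of forebrain neurons, was 380, 421, 368 and 537 in midbrain-thalamus, against 2184, 1912, 1644 and 1745 in inferior and 417, 415, 460 and 419 in superior colliculi. Its mean difference of -1.08 ± 0.10 came from inferior colliculi alone, at -2.14 ± 0.11 against those and -0.02 ± 0.11 against superior colliculi. Tpbg, a membrane glycoprotein that modulates Wnt signalling, was 113, 117, 70.3 and 80.2 in midbrain-thalamus, against 683, 651, 429 and 447 in inferior and 42.5 to 60.7 in superior colliculi. It was at -2.54 ± 0.11 against inferior colliculi (adjusted p = 5.76e-11, limma).

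Maf, a leucine zipper transcription factor, was 30.4 to 44.7 in midbrain-thalamus, against 138 to 175 in inferior and 44.2 to 57.5 in superior colliculi, at -2.15 ± 0.14 and -0.50 ± 0.14. En2, the paralogue of En1, was at -1.33 ± 0.09 against inferior and 0.12 ± 0.09 against superior colliculi. The potassium channel subunit Kcnab3 and the fast synaptotagmin Syt2 were at -1.26 ± 0.11 and -1.16 ± 0.07 against inferior colliculi, and at -0.01 and -0.19 against superior colliculi. For Maf, Tpbg and Kcnab3 inferior colliculi had the highest level of the 24 tissues.

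The opposite order held for genes low in inferior colliculi. Zic1, a zinc finger transcription factor of dorsal neural tube and cerebellum, was 786, 655, 879 and 905 in midbrain-thalamus, against 79.8, 48.1, 111 and 66.1 in inferior and 290, 401, 322 and 442 in superior colliculi. It was higher by 3.46 ± 0.17 against inferior and by 1.16 ± 0.17 against superior colliculi, and by 2.31 ± 0.15 against both (adjusted p = 7.77e-09, limma). Lef1 was 237 to 283 in midbrain-thalamus, against 91.6 to 124 in inferior and 261 to 312 in superior colliculi, and differed by 1.28 ± 0.11 and -0.11 ± 0.11. The Eph receptors Epha7 and Epha4, which guide axons into maps, were at 1.60 ± 0.27 and 1.26 ± 0.14 against inferior colliculi, and at -0.13 ± 0.27 and 0.37 ± 0.14 against superior colliculi. Kitl, the ligand of the receptor Kit, was at 1.19 ± 0.12 against inferior colliculi, whereas Kit itself was at -1.19 ± 0.11. For both, all 4 midbrain-thalamus arrays stood apart from all 8 colliculi arrays, in opposite directions.

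Against superior colliculi, Cck was 1231, 1196, 918 and 1021 in midbrain-thalamus and 251 to 294 in superior colliculi, a difference of 2.01 ± 0.11 (adjusted p = 6.87e-10, limma), while inferior colliculi had 776 to 1341. Sst, somatostatin, was 997 to 1239 in midbrain-thalamus, against 1522 to 2265 in inferior and 403 to 490 in superior colliculi, at 1.27 ± 0.09 against superior colliculi. Tcf7l2 was 179 to 256 in midbrain-thalamus, against 360 to 513 in inferior and 83.9 to 114 in superior colliculi. It was called only against superior colliculi, at 1.07 ± 0.13, and was at -0.95 ± 0.13 against inferior colliculi. Without the first B6 array of midbrain-thalamus both calls turned, to 0.99 against superior and -1.03 against inferior colliculi. Six3, a homeobox gene of the forebrain and eye, and Ptk2b, a calcium-activated tyrosine kinase, were at 1.77 ± 0.21 and 1.59 ± 0.19 against superior colliculi.

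Of the 3 tissues compared, superior colliculi had the highest level of Tfap2b, Ebf1, Gata3 and Tal1. Tfap2b, of the AP-2 family, was 63.7, 50.5, 28.8 and 43.6 in midbrain-thalamus, against 30.9 to 67.9 in inferior and 221, 236, 172 and 175 in superior colliculi. It was at -2.15 ± 0.19 against superior and -0.21 ± 0.19 against inferior colliculi. Ebf1, an early B-cell factor also active in neurons, was at -1.98 ± 0.23 against superior colliculi. Gata3 and Tal1, transcription factors found in GABA neurons of the midbrain, were at -1.13 ± 0.12 and -1.24 ± 0.20. Against inferior colliculi Gata3 and Tal1 were at -0.27 ± 0.12 and 0.00 ± 0.20. Their relatives differed: Gata2 was 65.6 to 82.4 in midbrain-thalamus, 81.4 to 111 in inferior and 73.5 to 87.7 in superior colliculi, and Tal2 was too dim for the test. Of 16 genes on the array from the list for tectum and the midbrain-hindbrain border, 11 were tested, with a median of -0.50. Against both colliculi 1 was called higher (Zic1) and 1 lower (Tfap2b), beside 0.748% and 0.283% of all tested genes.

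**Figure D5:**
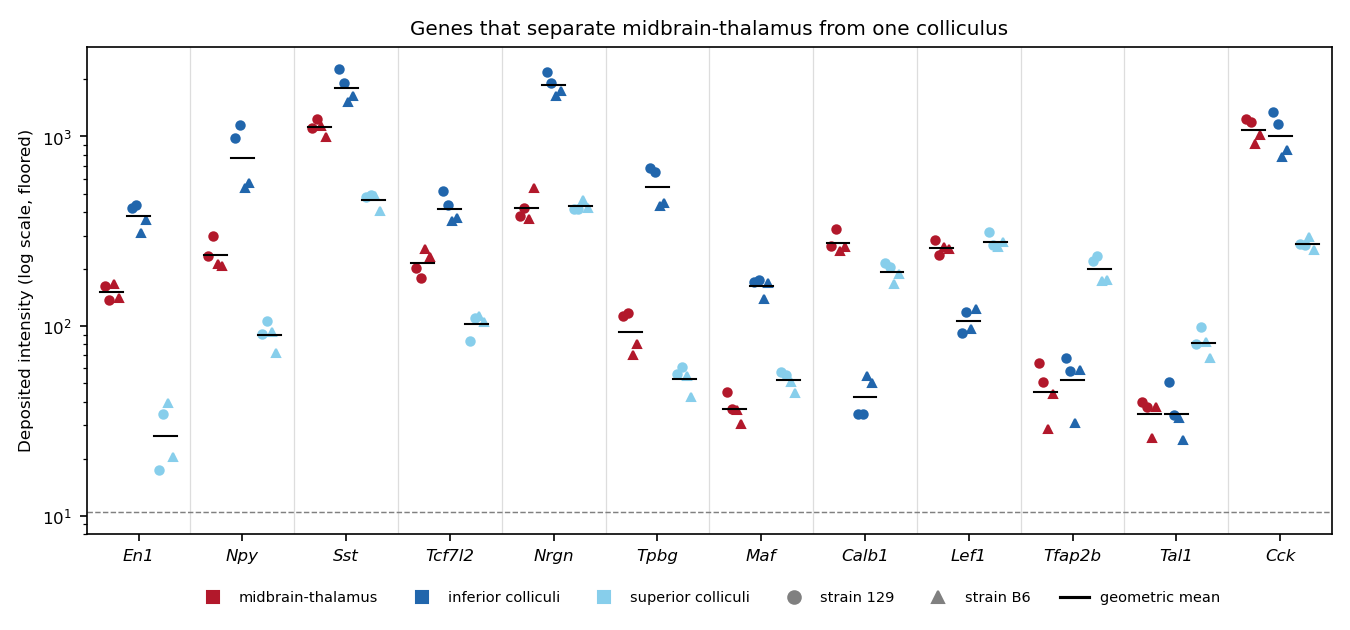
Intensity (log scale, floored at 10.4, dashed line) on each array for genes that separate midbrain-thalamus from 1 colliculus; black lines are geometric means of 4 arrays. En1 and Npy in midbrain-thalamus lie between high inferior and low superior colliculi, Nrgn, Tpbg and Maf are high in inferior colliculi, Calb1 and Lef1 low there, Tfap2b and Tal1 are high in superior colliculi and Cck is low there.

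The tissue difference was also compared between strains. No gene passed an adjusted p of 0.05 for the interaction of tissue and strain in limma, where the smallest adjusted p was 0.267, and 522 genes (10.5%) had an unadjusted p below 0.05. Among the called genes, the smallest unadjusted p was that of Ddc, whose difference was 1.00 in B6 arrays and 2.47 in 129 arrays, with an interaction of -1.47 (unadjusted p = 0.00025). Cbln1 had 1.58 in B6 and 0.85 in 129 arrays, Cox6a2 had 1.99 and 2.92, and Tnnt1 had 2.18 and 1.55. For Slc6a3 the values were 3.50 and 3.80, and for Th 2.18 and 2.30. With 2 arrays of each tissue and strain, these differences between strains were not separable from the spread between arrays after adjustment.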

How the data were processed

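The 12 arrays were read from the deposited table of 150 arrays. Its values are intensities, 5.97% of them below 0; for the authors' software, correction and scaling of these deposited intensities, the sources used here give nothing. The 66 control probe sets were left out, as was a pair of arrays with identical values. Of the other probe sets, 10833 had 1 gene symbol, 396 several and 1193 none. The probe set with the highest mean over 148 arrays stood for a gene (8251 genes). Values were floored at the 20th percentile (10.4) and expressed as log2, and the genes tested had a strain-adjusted mean above 5.74, the overall median, in at least 1 of the 3 tissues. limma 3.58.1 in R 4.3.3 fitted the tissues and strain with a trend in the prior variance. Levels in 24 neural tissues came from a fit of 98 arrays. The fit was tested on simulated data. The number of arrays limits the precision.

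The arrays, the gene lists and the thresholds were chosen with earlier results of these data known. The rule for named genes took the 12 called genes with the largest difference in each direction, up to 5 called members of each of 27 lists, every dopamine gene on the array, Slc6a3, Th and En1, and genes called in the interaction. Genes beyond it were chosen after their values were seen. Of the symbols, 10817 probe sets matched RefSeq gene records by gene ID. Alternatives varied the floor, scaling, filter, variance prior, covariates, arrays, probe sets and pools. Figures were drawn with matplotlib.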

Additional observations from a re-analysis of the deposited data

Results flagged for a closer look

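Single arrays that stood apart from the other 3 of their group, by the gap to the nearest divided by the range of the group (Dixon's 95% value), were found 25 times in 315 groups of 4 arrays over 105 genes, where chance flags about 1 in 20 groups.

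In midbrain-thalamus, Foxa2 was 18.7 on the first 129 array against 12.1 to 12.9 on the others, and Syt9 was 80.7 there against 63.8 to 65.6. Gja1 was 2291 on the second B6 array against 2457 to 2472, Gch1 was 10.7 there (10.65) against 20.5 to 23.0, and Tal1 was 25.6 on the first B6 array against 37.3 to 39.7.

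In inferior colliculi, the first B6 array had 127 for Cbln1 against 173 to 178, 25.5 for Hcrt against 38.8 to 41.1, and 138 for Maf against 169 to 175. The second B6 array had 100.3 for Gata3 against 89.6 to 90.8, and 81.5 for Kitl against 113 to 115. The second 129 array had 33.3 for Ebf1 against 27.4 to 27.9, 15.1 for Ramp3 against 31.1 to 35.6, and 3016 for Gja1 against 2680 to 2714. The first 129 array had 11.1 (11.09) for Foxa1, with the others at the floor.

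In superior colliculi, Ddc was 142 on the first B6 array against 83.6 to 87.3, Nrgn was 460 (459.8) there against 415 to 419, and Foxa1 was 11.0 (11.04) with the others at the floor. The second B6 array had 403 for Sst against 480 to 490, and 11.1 for Gbx2 with the others at the floor. The first 129 array had 19.3 for Avp with the others at the floor, 1084 for Scn1a against 961 to 978, 467 for Nr5a1 against 277 to 303, and the floor value of 10.4 for Ret against 22.8 to 26.7. The second 129 array had 24.5 for Slc6a3 with the others at the floor, and 29.6 for Ptk2b against 47.0 to 50.2. For Avp, Foxa1, Gbx2 and Slc6a3 the group lay at the floor but for that array.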

How the results depend on the processing

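The count of genes called against both colliculi, 51 as reported, ran from 48 to 60 when 1 array was left out, with 60 without the second B6 array of midbrain-thalamus. It ran from 41 (floor at the 40th percentile, 33 higher and 8 lower) to 62 (B6 arrays alone) under the other alternatives. The counts against inferior and superior colliculi, 73 and 72 as reported, ran from 57 to 89 and from 66 to 92. No tissue-by-strain interaction was called except with all dim genes kept, where 1 was (Twist1, -0.91 ± 0.07, adjusted p = 0.0448, limma). Paired by shared animals as a random replicate block, 52, 75 and 70 genes were called against both, inferior and superior colliculi, and the block changed the call of none of the genes named. Deviations of arrays from the same animals correlated at -0.22 in 129 and -0.23 in B6. With the pools crossed, an alternative chosen after seeing the data, 50, 72 and 71 genes were called. Crossing pairs arrays of different animals. With 2 arrays per tissue and strain it only turns the sign of these correlations, so it is no separate check of the pairing. Of the 51 called genes, 29 stayed called in every alternative that tested them and 40 in every leave-one-out fit that tested them. The 40 include Ttr, which was too dim to be tested without the second B6 array of midbrain-thalamus. Col1a2 changed sign with the probe set brightest over the 12 arrays, to -0.0099 against inferior and 0.23 against superior colliculi. No other named result that was called changed direction. Intensities near the floor limit Avp, Slc6a3, Gbx2, Gabrd and Ret, whose size follows the floor.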

Other observations

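Some genes that the thresholds leave out had fully separate groups. L1cam, an adhesion molecule of axons, was 163, 120, 163 and 187 in midbrain-thalamus, against 68.7 to 95.7 in inferior and 72.1 to 96.6 in superior colliculi, a difference of 0.97 ± 0.13. Calb2, the calcium buffer calretinin, was 862 to 1198 in midbrain-thalamus and 679 to 809 in the colliculi, at 0.51 ± 0.07. Nkx2-2, a homeobox gene of the ventral neural tube, was 146 to 179 in midbrain-thalamus and 91.5 to 124 in the colliculi, at 0.55 ± 0.09. The potassium channel gene Kcna6 was 75.1 to 89.4 in midbrain-thalamus and 33.0 to 69.4 in the colliculi, at 0.72 ± 0.15. In the other direction, Scn1a, a sodium channel of fast-spiking neurons, was 620 to 830 in midbrain-thalamus and 961 to 1341 in the colliculi, at -0.52 ± 0.09. These genes were chosen after their values were seen.

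Among dim genes kept out of the test, Dlx1, a homeobox gene of forebrain GABA neurons, was 18.1 to 35.0 in midbrain-thalamus, while all 8 colliculi arrays were below 0 and so at the floor, which leaves the size of the difference set by the floor. Prox1, a homeobox gene also expressed in thalamus, was 20.7 to 38.3 in midbrain-thalamus, against 14.9 to 21.7 in inferior and 11.0 to 13.1 in superior colliculi, the last close to the floor of 10.4. Pax3, a paired box gene of the dorsal midbrain, was at -0.87 ± 0.15, with 11.3 to 18.0 in midbrain-thalamus and 21.0 to 39.6 in the colliculi.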
